A study of Mus musculus with 4 samples.

Results

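The genes Ptprc, Csf1r, Cd68, Lyz2, Tyrobp, Fcer1g, Laptm5, C1qa, C1qb and C1qc, which mark macrophages and other leukocytes, were followed in cultures of primary mouse chondrocytes. They were found by the RefSeq transcript that each array probe is said to read. For 9 of the 10 genes a transcript was on the array, with 12 probes in all, among 37042 genes or unnamed transcripts. Of Cd68, which encodes a lysosomal membrane glycoprotein of macrophages, neither of the 2 transcripts in the gene table was named on the array. Array transcripts that this table does not list stayed unnamed, and whether 1 of them is a Cd68 transcript is not settled here, so Cd68 has no value. The pups were 6 days old and on a C57BL/6J background, either Prrx1-Cre; Rela fl/fl (cKO) or their Rela fl/fl littermates without Cre, and their chondrocytes were cultured for 3 days with 10 ng ml−1 TNF or without it. All cells carried 2 floxed Rela alleles, and the Prrx1 promoter drives Cre in limb mesenchyme, from which chondrocytes arise but blood cells do not. There was 1 array for each of the 4 combinations of genotype and treatment. No value therefore has a replicate, and every difference below is that of 2 single arrays. No test between conditions was run, since a fit over the 4 arrays would have to take the TNF difference as the same in both genotypes and would leave 1 residual degree of freedom.

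Macrophages and most other leukocytes arise from blood stem cells and carry a common set of proteins. Ptprc encodes CD45, a phosphatase on the surface of white blood cells, and Laptm5 encodes a lysosomal membrane protein of blood cells. Tyrobp (DAP12) and Fcer1g (the Fc receptor gamma chain) are adaptors whose ITAM motifs recruit the kinase Syk. Csf1r is the receptor through which CSF1 and IL34 keep macrophages and their precursors alive. Lyz2 encodes the lysozyme of macrophages and neutrophils, and C1qa, C1qb and C1qc encode the chains of the complement protein C1q, made largely by macrophages. A culture of isolated cartilage cells can hold some such cells, and they are read together with the chondrocytes in 1 RNA sample. In such a sample, fewer cells of a type and less RNA per cell cannot be told apart.

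The 4 arrays lay on 1 slide, were read in 1 scan and carried 59305 transcript spots each, with between 138 and 225 spots flagged as outliers and 0 saturated spots. Intensity is given in the arbitrary units of the scanner software after its background subtraction, and a spot is called well above background where that software flagged it so. The lowest such intensity was between 17.5 and 32.2, depending on the array. Folds and log2 differences are between intensities divided by the 75th percentile of their array. Where the dimmer array was not well above background, its signal was raised to that lowest intensity if it lay under it, and the fold is a bound, written as "at least". All 13 chondrocyte genes of the list read here, among them Col2a1, Acan and Sox9, had signals well above background on every array. The targeted gene itself, Rela, gave signals on the arrays labelled cKO (intensity 21528 and 23707) that were not below those on the Rela fl/fl arrays (17380.4 and 21472). Whether its probe lies in the deleted part is not given in the sources used here, so it does not check the labels. Xist, which is expressed from the inactive X chromosome of females, had intensities of 439 and 465 on the Rela fl/fl arrays and was at background level (6.51 and 4.69) on the arrays labelled cKO, while the Y-linked Ddx3y read 799 and 801 on the former and 2319 and 2497 on the latter, so genotype and the sex of the pups cannot be told apart. On 3 arrays, between 7.17% and 10.7% of the spots lay in bright patches, where 3 or more surrounding spots exceeded their signal on every other array by 2-fold or more. On the TNF-treated array labelled cKO, 1.04% did.

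The stretches just before the start sites of Fcer1g, C1qb and C1qc are shown because the first 2 genes gave a signal well above background on every array, and C1qc, which lies beside C1qb on chromosome 4 and encodes a chain of the same protein, gave such a signal on none. They are the 250 bases upstream of each RefSeq start, written 5′ to 3′ on the gene's own strand, which is the minus strand for all 3 genes, in GRCm38.p6. Capitals mark GAGGAA or its reverse complement TTCCTC, the core that the macrophage factor PU.1 binds, and a match to the NF-κB consensus.
Fcer1g, chr1:171234350-171234599: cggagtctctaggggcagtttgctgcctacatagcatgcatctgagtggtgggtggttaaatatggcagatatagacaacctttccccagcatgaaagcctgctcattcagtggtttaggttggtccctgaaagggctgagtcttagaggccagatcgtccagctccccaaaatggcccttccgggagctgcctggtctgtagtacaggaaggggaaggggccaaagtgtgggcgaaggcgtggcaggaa
C1qb, chr4:136886201-136886450: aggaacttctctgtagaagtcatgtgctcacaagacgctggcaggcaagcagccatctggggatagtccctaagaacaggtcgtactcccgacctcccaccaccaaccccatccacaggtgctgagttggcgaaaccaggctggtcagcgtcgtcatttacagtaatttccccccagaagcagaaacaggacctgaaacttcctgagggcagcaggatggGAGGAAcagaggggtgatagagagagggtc
C1qc, chr4:136892915-136893164: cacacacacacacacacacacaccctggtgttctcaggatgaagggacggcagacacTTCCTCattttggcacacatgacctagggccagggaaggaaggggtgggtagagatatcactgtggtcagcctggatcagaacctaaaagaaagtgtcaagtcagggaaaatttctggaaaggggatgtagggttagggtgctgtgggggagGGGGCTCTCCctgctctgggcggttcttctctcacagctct

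GAGGAA was in 5 of the 8 windows of the 7 markers with an entry (Ptprc has 2 windows). Over all 32851 promoter windows of this length, 23.3% held it on either strand. The longer GAGGAAGT, which contains GAGGAA, was in the C1qc window alone of the 8, and in 2.44% of all windows. The NF-κB consensus, of interest because Rela is an NF-κB subunit, matched in the C1qc window and in 7.25% of all windows. Of the windows shown, that of Fcer1g held none of the 3 motifs. A match is a description of letters, not a bound site, and no match says only that these letters are not in the window. Csf1r, Tyrobp and C1qa had no entry.

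Ptprc was not well above background on any array. Its intensity was 23.1 in Rela fl/fl cells, 20.5 in TNF-treated Rela fl/fl cells, 19.4 on the array labelled cKO and 17.6 on the TNF-treated array labelled cKO. No fold is given for it, since neither side of any comparison was well above background. The marker shared by all leukocytes thus had no measurable level in these cultures on these arrays.

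Laptm5 was read by 2 probes for the same transcript, and they disagreed. The first had an intensity of 42.1 in Rela fl/fl cells, 121 in TNF-treated Rela fl/fl cells, 12.2 on the array labelled cKO and 13.8 on the TNF-treated array labelled cKO, the last 2 not well above background. The second read 13.9, 7.96, 17.0 and 8.46 in the same order and was not well above background on any array. By the first probe, Laptm5 was 2.85-fold higher after TNF in Rela fl/fl cells and at least 6.59-fold lower on the TNF-treated array labelled cKO than on the TNF-treated Rela fl/fl array. The spot of 121 lies in a bright patch. Of the 53 other spots around it, 5 were also at least 2-fold brighter on that array than on every other. The second probe was not higher there. With normexp background correction and an offset of 50, which shrinks differences of dim spots, the TNF difference of the first probe was 0.65 (log2) in place of 1.51 and thus under 2-fold, and that on the TNF-treated array labelled cKO was -1.12 in place of -2.72. Without TNF, where no spot of this probe lies in a patch, the array labelled cKO was at least 1.92-fold lower than Rela fl/fl cells. This log2 difference of -0.94 was -0.54 with the normexp background, -0.39 with the same lowest intensity on all arrays and -0.14 as a mean over both probes, and that on the TNF-treated array labelled cKO was -1.90 with the same lowest intensity and -0.76 as the mean, the latter under 2-fold.

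**Figure D1:**
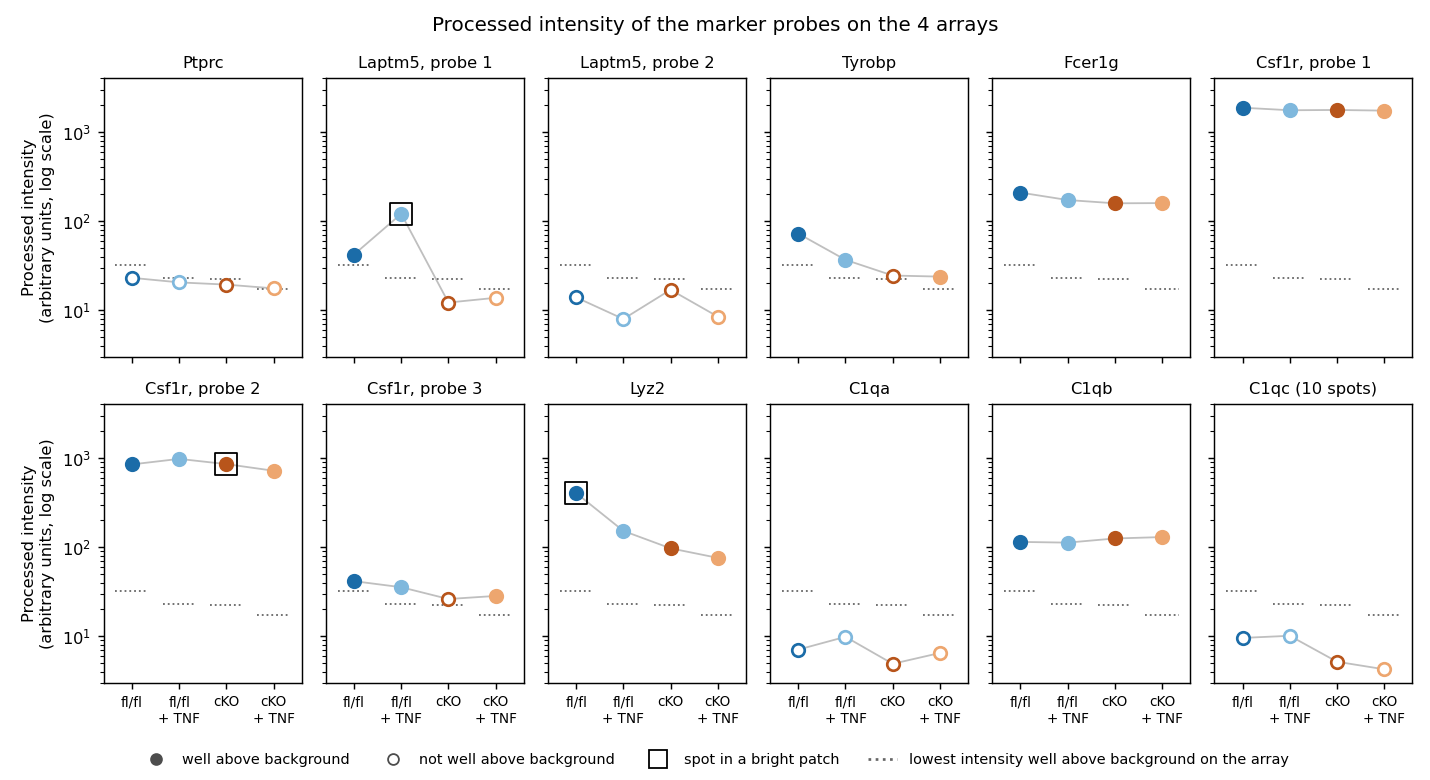
Processed intensity (log scale, arbitrary units) of the 12 probes of 9 markers on the 4 arrays, 1 point per array, with the median of the spots for the C1qc probe. Filled points are well above background, open points are not, squares mark a single spot in a bright patch, and dotted lines give the lowest intensity well above background on each array. Ptprc, C1qa, C1qc and the second Laptm5 probe are open throughout, and the first and second Csf1r probes, Lyz2, Fcer1g and C1qb are filled throughout.

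The ITAM adaptors Tyrobp and Fcer1g were both highest in untreated Rela fl/fl cells. Tyrobp had an intensity of 72.4 in Rela fl/fl cells, 36.7 in TNF-treated Rela fl/fl cells, 24.5 on the array labelled cKO, where it was not well above background, and 23.8 on the TNF-treated array labelled cKO. None of its 4 spots lies in a patch. It was at least 3.05-fold lower on the array labelled cKO than in untreated Rela fl/fl cells, and 1.47-fold lower with TNF. The first of these, a log2 difference of -1.61, was -0.68 and so under 2-fold with the normexp background, and -1.17 with the same lowest intensity on all arrays. The second, -0.56, was -0.12 with the normexp background. In Rela fl/fl cells it was 1.98-fold lower with TNF, just inside the 2-fold limit used for counting, a log2 difference of -0.99 that was -0.53 with the normexp background. Spots of 1 probe on 1 array, which give the only repeated measurement, varied so that a difference between 2 such spots had an SD of 0.43 (log2) at intensities from 25 to 50 and of 0.36 from 50 to 100. The log2 differences of -1.61 and -0.99 for Tyrobp are larger than 1 such SD, which leaves out the spread between cultures.

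Fcer1g read 209 in Rela fl/fl cells, 173 in TNF-treated Rela fl/fl cells, 158 on the array labelled cKO and 159 on the TNF-treated array labelled cKO, all well above background and outside patches. It was 1.22-fold lower after TNF in Rela fl/fl cells and 1.36-fold lower on the untreated array labelled cKO. These log2 differences of -0.29 and -0.45 are larger than the technical SD of 0.18 at these intensities. That between the genotypes with TNF, -0.05, is smaller, and it turned to 0.03 after quantile normalization.

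Csf1r, read by 3 probes, had no difference past 2-fold by any of them. The first read 1877 in Rela fl/fl cells, 1757 in TNF-treated Rela fl/fl cells, 1770 on the array labelled cKO and 1741 on the TNF-treated array labelled cKO, a range of 0.13 (log2) over the 4 arrays. The second read 848, 979, 855 and 720, with a range of 0.37 and with the third of these spots in a patch. The third read 41.5, 35.4, 26.1 and 28.3, and was not well above background on the untreated array labelled cKO, which was at least 1.64-fold lower than Rela fl/fl cells. The probes thus disagreed in level, with 1741 to 1877 by the first and 26.1 to 41.5, near background, by the third. Their differences varied in sign as well as in size: after TNF in Rela fl/fl cells, the log2 differences were -0.10, 0.20 and -0.23. At the intensities of the first and second probe, the technical SD of a difference was 0.09.

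Lyz2, like Tyrobp, was highest in untreated Rela fl/fl cells and next highest in TNF-treated Rela fl/fl cells. Its intensity was 404 in Rela fl/fl cells, 152 in TNF-treated Rela fl/fl cells, 96.9 on the array labelled cKO and 75.7 on the TNF-treated array labelled cKO, all well above background. It was 2.67-fold lower after TNF in Rela fl/fl cells and 4.30-fold lower on the array labelled cKO than in untreated Rela fl/fl cells. With the normexp background these log2 differences were -0.87, under 2-fold, and -1.29. The spot of 404 lies in a patch, with 17 of 51 neighbouring spots at least 2-fold brighter than on each other array. The comparisons that do not use this spot gave 1.92-fold lower on the TNF-treated array labelled cKO and 1.19-fold lower after TNF on the arrays labelled cKO. The probe of the related lysozyme gene Lyz1, with no spot in a patch, read 572, 475, 335 and 374 in the same order, with a log2 difference of -0.82 on the untreated array labelled cKO. The transcripts of these paralogs are alike, and how far each probe also reads the other was not tested.

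The 3 C1q chains were not measured alike. C1qb read 114 in Rela fl/fl cells, 112 in TNF-treated Rela fl/fl cells, 125 on the array labelled cKO and 130 on the TNF-treated array labelled cKO, all well above background and outside patches. Its largest difference, 0.28 (log2) higher on the TNF-treated array labelled cKO than on the TNF-treated Rela fl/fl array, is 1.21-fold. C1qa read 7.07, 9.83, 4.89 and 6.47 and was not well above background on any array. C1qc, with 10 spots on each array, had medians of 9.55, 10.1, 5.17 and 4.25 and was not well above background on any array either. C1qb was thus the chain with a measurable signal. Without TNF its difference between the genotypes was 0.08, less than the technical SD of 0.18, and it turned to -0.02 with the normexp background.

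Of the 40 spots of C1qc on the 4 arrays, 5 lay in patches, of which 1 was well above background. On the TNF-treated Rela fl/fl array, 9 of the 10 spots lay between 5.21 and 18.4 and none of these was well above background. The tenth, in a patch and flagged as an outlier by the scanner software, read 118 and was well above background. The 3 patch spots in untreated Rela fl/fl cells read 7.06, 8.28 and 18.1 beside 7.13 to 15.6 for the other 7, and the 1 on the untreated array labelled cKO read 5.13, within the range of the other 9. On the TNF-treated array labelled cKO, the 10 spots lay between 3.68 and 7.29. Apart from C1qc, every marker probe has 1 spot per array, so a spot in a patch has no second spot to set beside it.

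**Figure D2:**
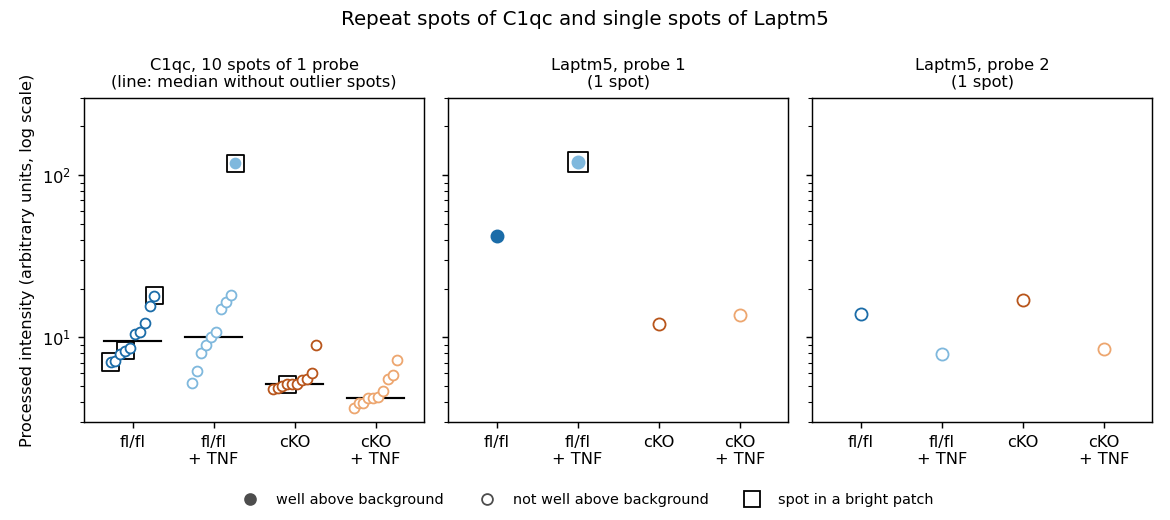
Processed intensity (log scale, arbitrary units) of the 10 spots of the C1qc probe on each array, with their median without outlier spots, beside the single spots of the 2 Laptm5 probes. Squares mark spots in a bright patch. Of the 5 C1qc spots in patches, 1 stands apart. This spot at 118 and the Laptm5 spot at 121 are both on the TNF-treated Rela fl/fl array and both in a patch.

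The 9 markers on the array were each counted by their brightest probe, although the probes of Csf1r and of Laptm5 disagreed in level. Of these markers, 4 (Csf1r, Lyz2, Fcer1g and C1qb) were well above background on all 4 arrays, 1 (Tyrobp) on 3, 1 (Laptm5) on 2 and 3 (Ptprc, C1qa and C1qc) on none. Of all genes, 55.3% were well above background on all 4 arrays and 29.9% on none. The number of markers well above background was 6 on both Rela fl/fl arrays, 4 on the array labelled cKO and 5 on the TNF-treated array labelled cKO. The share of all genes went the other way, with 57.9% and 61.0% on the Rela fl/fl arrays and 63.6% and 64.3% on the arrays labelled cKO. The lowest intensity well above background also differed between arrays and was highest (32.2) in untreated Rela fl/fl cells.

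After TNF in Rela fl/fl cells, 6 markers could be compared, of which 1 (Laptm5) was at least 2-fold higher and 1 (Lyz2) at least 2-fold lower. Of all genes tested, 2.39% were higher and 4.26% lower by this limit. The median log2 difference of the 6 was -0.19, against 0.01 over all genes. The brighter spot of both marker calls lies in a patch, as it does for 78% of all genes called higher and 86.1% of those called lower in this comparison.

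After TNF on the arrays labelled cKO, 5 markers could be compared and 0 were past the limit in either direction, against 0.759% higher and 4.26% lower of all genes tested. Their differences lay between -0.25 and 0.16 (log2), with a median of 0.08 against 0.06 over all genes. A known TNF target was higher with TNF on both pairs of arrays: Nfkbia, an inhibitor and target of NF-κB, read 2141 without and 6138 after TNF in Rela fl/fl cells, and 2122 and 3605 on the arrays labelled cKO. The TNF difference in Rela fl/fl cells minus that on the arrays labelled cKO was -1.17 (log2) for Lyz2, -0.40 for Fcer1g, -0.19 for C1qb and -0.18 for Csf1r. This difference of differences was not tested, and for Lyz2 it rests on the spot in a patch.

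On the array labelled cKO against untreated Rela fl/fl cells, 0 of 6 markers were higher and 2 (Lyz2 and Tyrobp) were lower by the limit, against 3.53% and 4.14% of all genes. The median of the 6 was -0.69 and 5 of them were below 0, while the median of all genes was 0.01. Tyrobp and Laptm5 were compared here only because they were well above background in Rela fl/fl cells, which fixed their sign, and the median of the 4 markers well above background on both arrays was -0.29. C1qb, at 0.08, was the marker above 0. With TNF, 0 of 6 were higher and 1 (Laptm5) was lower, against 1.17% and 3.07% of all genes, and the median was -0.30 against 0.06. With patches left out, 0 of 4 were past the limit and the median turned to 0.0038, and with both arrays well above background it was -0.0469, with 0 past the limit. Laptm5 was a bound in both comparisons, so that its sign was fixed in both. The log2 differences without and with TNF were -2.11 and -0.94 for Lyz2, -1.61, the bound, and -0.56 for Tyrobp, and -0.45 and -0.05 for Fcer1g. For Csf1r they depended on the probe, with -0.13 and 0.05 by the first, -0.03 and -0.37 by the second, and -0.71, a bound, and -0.26 by the third. Of the 3 lower calls in these comparisons, the brighter spot lies in a patch for Lyz2 and Laptm5 and not for Tyrobp. Over all genes called lower, it does for 82.7% without TNF and 71.4% with TNF. The medians of some other lists were below 0 too. That of the 13 chondrocyte genes was -0.60 without TNF and -0.40 with it. Of them, 2 (Matn1 at -1.85 and Col9a2 at -1.06) and 1 were lower by the limit. That of 9 fibroblast genes was -0.23 and -0.27, with 1 and 0 lower. The medians of the osteoclast (0.01 and 0.13), erythroid (0.05 and 0.33) and endothelial genes (0.16 and 0.05) were above 0.

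**Figure D3:**
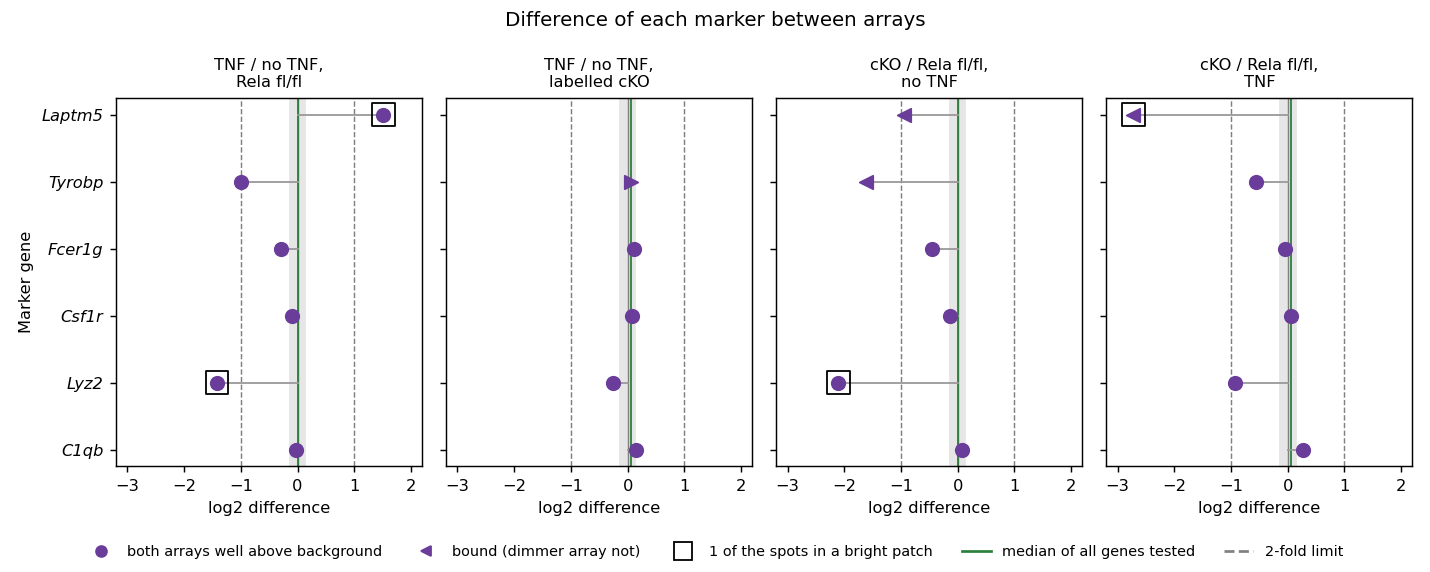
Log2 difference of each marker in the 4 comparisons, with the first-named condition of each panel over the second. Triangles are bounds, where the dimmer array was not well above background, squares mark a spot in a bright patch, the grey band is 1 technical SD of a difference between spots of probes well above background (0.14, and up to 0.43 at intensities from 25 to 50), and the green line is the median of all genes tested. Tyrobp without TNF is the difference past 2-fold with no spot in a patch.

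No gene is named as most like these markers. The shared profile could be taken from 3 markers with no spot in a patch on any array (Csf1r, Fcer1g and C1qb), and it spanned 0.13 (log2), under the span of 0.5 asked for.

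Other leukocyte genes were mixed in the same way. Of 18 further macrophage genes, 5 were well above background on all 4 arrays, 7 on 1 to 3 and 6 on none. The 5 were Itgam, the integrin chain CD11b, at 18728 to 25544, Lyz1, the lipopolysaccharide co-receptor gene Cd14 at 239 to 393, the Tyrobp-coupled receptor gene Trem2 at 81.9 to 151, and Adgre1. Whether the bright Itgam probe reads this transcript alone was not tested. The 6 were Spi1, which encodes PU.1, Cybb, a subunit of the phagocyte oxidase, and the receptor genes Fcgr1, Msr1, Siglec1 and C3ar1. Of 13 further pan-leukocyte genes, 8 (Arhgdib, Cd37, Cd48, Coro1a, Hcls1, Itgb2, Was and Lcp1) were well above background on all 4 arrays and 4 (Cd53, Cd52, Rac2 and Vav1) on none. The brightest of these probes was that of Arhgdib at 4832 to 5014, and the others of the 8 lay between 43.3 and 228. In untreated Rela fl/fl cells, Fcgr3, an Fc receptor that signals through Fcer1g, read 412, Ikzf1, a lymphoid transcription factor, 246, and the fractalkine receptor gene Cx3cr1 69.5. On the other 3 arrays these genes read at most 42.7, 5.86 and 21.1. On the untreated array labelled cKO, the scavenger receptor gene Cd163 read 1057 and Adgre1 (F4/80) 366, against at most 7.08 and 48.4 on the other arrays. Each of these 5 high spots lies in a patch.

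Genes of these lists past the 2-fold limit mostly had a spot in a patch. On the array labelled cKO against untreated Rela fl/fl cells, 2 of 11 further macrophage genes were higher (Cd163 and Adgre1) and 3 lower (Fcgr3, Cx3cr1 and Ctss), with a median of -0.13, beside 3.53% higher and 4.14% lower of all genes. That median is the value of Aif1, whose negative sign comes only from raising the dimmer signal. Unraised, Aif1 read 24.8 in Rela fl/fl cells, not well above background, and 30.3 on the array labelled cKO. Ctss, which encodes the lysosomal protease cathepsin S, is the 1 of the 5 genes past the limit with no spot in a patch. It is named after its values were seen. It read 79.5 in Rela fl/fl cells, 66.5 in TNF-treated Rela fl/fl cells, 29.2 on the array labelled cKO, where it was not well above background, and 33.1 on the TNF-treated array labelled cKO. Its log2 differences on the arrays labelled cKO were -1.49, a bound, without TNF and -0.94 with it. Of 9 further pan-leukocyte genes, 0 were higher and 1 (Ikzf1) was lower in the same comparison. Between the genotypes with TNF, 0 of 9 further macrophage genes and 0 of 8 further pan-leukocyte genes were past the limit. Their medians were -0.02 and 0.08, and 1.17% of all genes were higher and 3.07% lower. The summed signal of the further pan-leukocyte genes, in units of the 75th percentile of each array, was between 9.13 and 10.1, of which Arhgdib alone gave 7.62 to 8.37. That of the 9 markers was between 3.50 and 4.49, of which Csf1r alone gave 2.79 to 3.05 by its brightest probe. Each sum thus follows mainly 1 probe.

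**Figure D4:**
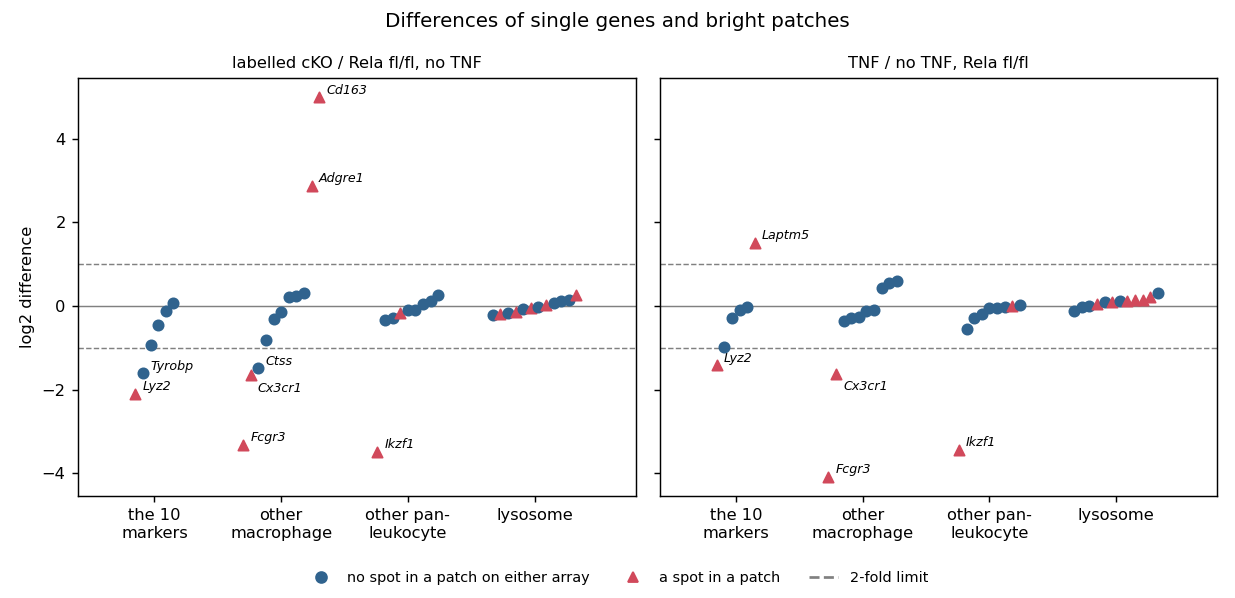
Log2 difference of each gene that could be compared, for the markers and 3 other lists, on the array labelled cKO against untreated Rela fl/fl cells (left) and after TNF in Rela fl/fl cells (right). Red triangles have a spot in a bright patch on either array, blue points do not. Past the 2-fold limit, Tyrobp and Ctss on the left are blue, and all others are red.

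Genes that act with the markers were also read. Of the ligands of Csf1r, Csf1 was well above background on all 4 arrays and within 0.31 (log2) in all comparisons, and Il34 read 475 without and 1119.85 after TNF on the arrays labelled cKO, a log2 difference of 1.34, against 0.64 in Rela fl/fl cells. Of 12 genes of this pathway that could be compared, Il34 was the 1 past the limit after TNF on the arrays labelled cKO, beside 0.759% of all genes higher, and the transcription factor gene Runx1 the 1 on the TNF-treated array labelled cKO against TNF-treated Rela fl/fl cells, at -1.19, beside 3.07% lower. Of 21 genes around the ITAM adaptors, 7 were well above background on all 4 arrays and 10 on none. By the limit, 2 of 9 were lower after TNF in Rela fl/fl cells, beside 4.26% of all genes. For TNF on the arrays labelled cKO, 1 of 11 was lower, also beside 4.26%. Between the genotypes, 2 of 10 were lower without TNF, beside 4.14%, and 1 of 9 was higher with TNF, beside 1.17%. Syk itself read 168, 196, 308 and 384 in the order used above, 1.04 higher (log2) on the TNF-treated array labelled cKO, opposite in sign to Tyrobp. Btk, a kinase of the same pathway, read 90.1, 33.4, 37.2 and 31.4, a log2 difference of -1.44 after TNF in Rela fl/fl cells and of -1.32 on the untreated array labelled cKO, with no spot in a patch.

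Most partners of C1q in the complement cascade were measurable on every array: of 11 such genes, 10 were well above background on all of them. After TNF in Rela fl/fl cells, 2 were higher: C3, the central complement protein, read 667 without and 3479 with TNF, and Cfb, a protease of the alternative pathway, 307 and 1410.2, beside 2.39% of all genes higher. On the arrays labelled cKO, C3 read 499 without and 539 with TNF and Cfb 132 and 149. Without TNF, 2 of the 11 were lower on the array labelled cKO than in Rela fl/fl cells, Cfb at -1.26 and C4b at -1.01, beside 4.14% of all genes. With TNF, 4 of the 11 were lower there, with log2 differences of -3.17 for Cfb, -2.62 for C3, -1.10 for C4b and -1.03 for C1s1, while C1qb was 0.28 higher, and 3.07% of all genes were lower. All 12 lysosomal genes of the list were well above background on all 4 arrays and 0 were past the limit in any of the 4 comparisons, with differences between -0.20 and 0.32, where between 0.759% and 4.26% of all genes were past it in a given direction.

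Markers of other cell types that such cultures could hold were also read. Of 6 mast cell genes 5, of 11 lymphocyte genes 6, of 8 neutrophil genes 4, of 7 erythroid genes 3, of 9 osteoclast genes 3 and of 8 endothelial genes 3 were well above background on no array. Others of these lists were well above background on all 4 arrays: of the neutrophil genes Csf3r (41905 to 63248), Elane (3994 to 4666) and Camp (197 to 423), of the lymphocyte genes Cd4 (3727 to 4124), Nkg7 (1977 to 2264) and Cd3e (1093 to 1291), and of the endothelial genes Kdr (10987 to 12107), Egfl7 (1484 to 1865) and Pecam1 (88.8 to 129). So were the erythroid genes Hba-a2 (217 to 245), Hba-a1 (40.4 to 54.3) and Epor (35.5 to 56.2). Of 5 class II antigen presentation genes, H2-Ab1 (3348 to 6354), H2-Eb1 and Cd74 were too, and H2-Aa was on no array. In untreated Rela fl/fl cells, the neutrophil gene Mpo (152), the T cell gene Cd3d (188) and the osteoclast gene Atp6v0d2 (78.7) were well above background, and each of these spots lies in a patch. So do the high spots of Cd8a, a T cell gene (55.9), and Cpa3, a mast cell protease gene (44.4), in TNF-treated Rela fl/fl cells, and of the endothelial gene Emcn (83.8) on the untreated array labelled cKO. Camp, with no spot in a patch, had log2 differences of 0.93 after TNF in Rela fl/fl cells and of -1.04 on the TNF-treated array labelled cKO, past the 2-fold limit. Acp5, Ctsk, Ocstamp, Oscar and Tnfrsf11a, further osteoclast genes, had signals well above background on every array. The part of the patches, and of these other cells, in the differences of the markers was not tested.

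**Figure D5:**
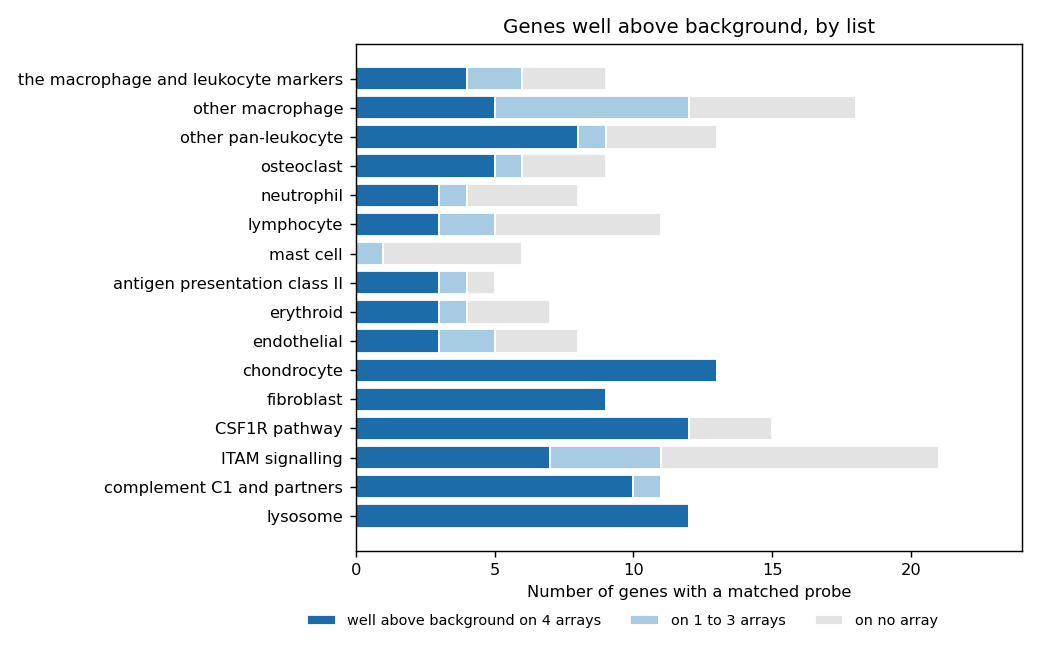
Number of genes with a matched probe in each list read well above background on all 4 arrays, on 1 to 3 arrays or on none. All genes of the chondrocyte, fibroblast and lysosome lists are in the first class, and 3 of the 9 markers, 6 of 18 further macrophage genes and 5 of 6 mast cell genes are in the last.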

How the data were processed

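RNA of 4 cultures was hybridised by the authors to 1-colour Agilent SurePrint G3 mouse arrays. The deposited intensity of each spot had its background subtracted and trends removed by Feature Extraction 10.10.1.1. A second deposited table, with the same intensity times 1 factor per array, served as an alternative. From there, each array's 75th percentile over its transcript spots was subtracted from its log2 intensities, outlier spots were left out, and spots of 1 probe were averaged. The probe with the highest mean stood for a gene where 1 value per gene was needed. Symbols came from RefSeq (GRCm38.p6) by unversioned accession, which matched 20435 of 20809 NM accessions, while the array files name mm9.

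A gene was tested where the brighter array was well above background and counted at a log2 difference of 1. A patch spot had 3 or more bright neighbours within 5 rows and 2 columns, a bright spot being 2-fold brighter than on each other array, with log2 values under -4.5 raised to it. The technical spread came from probes among the 399 with 10 spots. The SD of 0.14 used those with all 10 spots well above background and none an outlier, 173 to 215 per array. The SDs by intensity left out outlier spots only. They came from 69 pairs of a probe and an array at 25 to 50, and from 77 at 50 to 100. With 1 array per condition no p-values were computed. The markers, lists, patch rule and alternatives were chosen with earlier results of these data known. Named were all probes of the markers, the genes of each other list past the limit, at most 4 per list by size, and check genes where needed. Other list genes named for being well above background on all arrays or on none, and Aif1, Csf1, Lyz1 and Ctss, fall outside this rule and were chosen after their values were seen. The calling steps were tested on simulated data. R 4.3.3 with limma 3.58.1 gave the quantile and normexp alternatives, and Python 3.11.15 (pandas 2.3.3, numpy 2.4.6) the rest.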

Additional observations from a re-analysis of the deposited data

Results flagged for a closer look

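The markers, and the named genes of the other lists past the 2-fold limit, were looked at where the TNF differences of the 2 genotypes, or the genotype difference without and with TNF, had opposite signs and both passed 2 technical SDs of a difference between spots of probes well above background, 1 SD being 0.14. At intensities from 25 to 50 the SD was 0.43, and the values of -0.4541 for Cd74 and -0.4969 for Adgre1 given below would not pass 2 of these. None of the 6 markers with a measured difference did. With single arrays, the difference between the paired comparisons was not tested for any of the genes below.

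Outside patches on all 4 arrays, the matrilin gene Matn1 had TNF differences (log2) of -0.2918 for Rela fl/fl and 0.3761 for the arrays labelled cKO, and Thy1, a fibroblast surface protein, of -0.6872 and 0.6284. Runx1, with 1 spot in a patch, differed by 0.4263 and -0.3788. Cd74, the invariant chain of antigen presentation, differed by 0.7801 and -0.4541, with 2 spots in patches. Atp6v0d2, an osteoclast proton pump subunit, differed by -1.8005 and 1.0384 with TNF, and by -1.8423 without and 0.9966 with TNF between the array labelled cKO and Rela fl/fl cells, all 4 being bounds with a dim side not well above background, and its spot in Rela fl/fl cells without TNF lies in a patch. Adgre1 differed between genotypes by 2.8736 without TNF and -0.4969 with TNF, and its high spot lies in a patch.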

How the results depend on the processing

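Single arrays without replicates and dim probes set the limits: 3 markers were not well above background anywhere, Tyrobp, Laptm5 and a Csf1r probe lay near background, and 2 of the markers past 2-fold rest on spots in patches. No single comparison allowed a paired analysis, because each had 1 array on either side, which share 1 replicate number. Its result comes from no test. A fit over all 4 arrays with genotype as a block, which would pair arrays with and without TNF, was not run. Of 216 alternative values for single markers, 107 were identical to the reported one, since the alternative did not act on that marker's value. Of the other 109, 80 lay within 1 technical SD of it, 29 did not, and 12, all for differences under 2-fold, turned its sign. The number of markers past 2-fold with TNF in Rela fl/fl cells, 2, became 0 with normexp background, a 3-fold limit or patches left out, 1 with the mean over probes or the lowest probe, and 3 with the authors' value table or a 1.5-fold limit, by the addition of Tyrobp. On the array labelled cKO without TNF, 2 became 1 with normexp background, with both arrays well above background or with patches left out, the 1 left being Lyz2, whose bright spot lies in a patch, in the first 2 cases and Tyrobp in the last. It became 3, by the addition of Laptm5, with quantile normalization, no filter or a 1.5-fold limit. With TNF, 1 became 2 with no scaling, the authors' value table, no filter or a 1.5-fold limit, and 0 with both arrays well above background, the mean over probes, the lowest probe or patches left out. The median difference of the markers on the array labelled cKO without TNF, -0.69, became -0.45 with normexp background, -0.29 with both arrays well above background or patches left out, -0.37 with the mean over probes and -0.42 with the same floor on all arrays, which was chosen after seeing the data. With TNF, the median of -0.30 became -0.0848 with normexp background, -0.0469 with both arrays well above background, -0.54 with no filter and 0.0038 with patches left out, which turns its sign with 4 markers compared. For TNF in the cKO pair, the median of 0.08 became 0.27 after quantile normalization, and -0.0241 with no scaling and -0.0315 with the authors' value table, which turn its sign. Where fewer markers were compared the alternative itself removes them, and for the others the cause was not tested.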
